A study of Homo sapiens with 12 samples.

Results

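The 312 genomic regions described here carried a KDM2B peak in REH and SUP-B15, the lines of the series that derive from acute lymphoblastic leukaemia of B-cell precursors (B-ALL), and in none of its 5 other leukaemia lines. They are called B-ALL-only regions below. They were chosen by the deposited peak calls: any peaks of the 7 lists with 1 bp or more in common were joined, which gave 29071 regions, and those were kept that held a peak of REH and of SUP-B15 and none of K562, DND41, HPB-ALL, JURKAT or SIL-ALL. This pattern held for 1.07% of all regions, a share that describes the choice and is not itself a result. KDM2B binding was measured by chromatin immunoprecipitation and sequencing with an anti-KDM2B antibody from Millipore in cells grown in IMDM with 10% FBS, and no treatment is named in the labels.

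Each line is an established culture from 1 patient and had 1 KDM2B library, so no line had a replicate. REH carries the ETV6-RUNX1 fusion and SUP-B15 the BCR-ABL1 fusion. K562 is a myeloid line that carries BCR-ABL1 and was grown from the blast crisis of chronic myeloid leukaemia. SIL-ALL, JURKAT, HPB-ALL and DND41 derive from T-cell leukaemia (T-ALL). Lineages and fusions are background knowledge of the lines and were not checked here, since no expression values were used here. With 2 lines of 1 culture each, a pattern of B-ALL cannot be told apart from a pattern of these 2 libraries. The lists held 8146 peaks in REH and 7533 in SUP-B15, against 5942 in K562 and 12765 to 15304 in the T-ALL lines, and the number of sequencing reads behind each list is unknown.

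KDM2B is a histone demethylase with a CXXC zinc finger that binds unmethylated CpG-rich DNA. Through it a variant Polycomb repressive complex is brought to CpG islands, many of which are promoters, and the complex ubiquitinates histone H2A. In B-cell precursors, lineage is set by transcription factors such as PAX5, EBF1 and IKZF1, and KDM2B has been studied in blood formation and leukaemia. Genes are named below only as background on a chromosome band, because no gene annotation of hg19, the build of the peak lists, was used here. Whether a region lies in a gene, at a promoter or between genes was therefore not determined, and no sequence is shown.

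The 15 strongest B-ALL-only regions were picked by the highest mean of their percentiles in the REH and SUP-B15 lists. High ranks in both lists follow from that choice. Strength is given by the peak score that the authors deposited and by its percentile within the list of the line, where 100 is the highest-scored peak. Scores rank peaks within a list and are not compared between lists. The exception is a common score floor used below, which takes the lists to share a scale. Whether they do is unknown. The first region, in 17p11.2 (chr17:17626682-17628285), scored 473 in REH (percentile 99.4) and 627 in SUP-B15 (percentile 99.3). It was 1604 bp wide, the peaks of the 2 lines shared 1303 bp, and the nearest peak of any other line, one of HPB-ALL, lay 28625 bp away.

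The second region, in 6p25.3 (chr6:391584-394306), was the widest of the 312 and held the most peaks. It spanned 2723 bp. REH had 6 peaks there that covered 1884 bp, with a best score of 272 (percentile 98.1), and SUP-B15 had 2 peaks that covered 2714 bp, with a best score of 698 (percentile 99.4). Nearly all of the REH bases, 1875 bp, lay inside SUP-B15 peaks, so REH showed as several short pieces what SUP-B15 showed as nearly continuous enrichment. The nearest other peak was one of SIL-ALL at 14427 bp. The band is that of IRF4, a transcription factor of B-cell and plasma cell differentiation.

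The next 3 regions had high scores in both lists but different leading lines. In 7q32.1 (chr7:127671228-127672884) the scores were 377 in REH and 332 in SUP-B15, with 3 REH and 2 SUP-B15 peaks over 1657 bp. In 21q22.3 (chr21:44818331-44820241) a single peak of each line scored 492 in REH (percentile 99.5) and 289 in SUP-B15 (percentile 95.7). In 19q13.33 (chr19:50935090-50936857) the order of the percentiles turned, with a score of 202 in REH (percentile 96.0) and 577 in SUP-B15 (percentile 99.0).

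The 5 regions after these included the most isolated of the strong ones. A region of 1232 bp in 14q32.2 (chr14:96342559-96343790) stood at percentile 96.9 of both lists, its peaks shared 1196 bp, and no peak of another line lay within 340757 bp. A second region of 17p11.2 (chr17:17399103-17399953; scores 250 in REH and 284 in SUP-B15) had an HPB-ALL peak 200 bp away. The others were in 22q13.2 (chr22:42321694-42322719; scores 274 and 268, in this order of lines), 8q24.3 (chr8:142339246-142340583; 180 and 417) and 16q24.3 (chr16:88987221-88988657; 203 and 255). Their nearest peaks of other lines were 10165 bp, 13407 bp and 17231 bp away, so these 3 did not border on a peak of another line.

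The last 5 of the 15 strongest regions, all wider than 1 kb, were mixed in this respect. The region in 9q34.2 (chr9:137287968-137289301; scores 246 in REH and 227 in SUP-B15) was made of 4 REH and 2 SUP-B15 peaks. In 2p22.3 (chr2:36583049-36584122; 159 and 316) and 7p22.3 (chr7:1095116-1096191; 153 and 213) a peak of JURKAT and one of SIL-ALL lay 309 bp and 20 bp from the edge. Those in 19p13.3 (chr19:3687478-3688813; 123 and 350) and 22q11.21 (chr22:18592801-18593943; 138 and 246) were 10565 bp and 2818 bp from other lines. Over these 15 regions, the best REH score ranged from 123 to 492 and the best SUP-B15 score from 213 to 698. Of the 15, 10 had no peak of another line within 10 kb and 3 had one within 1 kb.

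Most B-ALL-only regions were of middling rank, and rank in one line said little about rank in the other. The percentile of the best REH peak ran from 2.53 to 99.6 with a median of 62.7, and that of the best SUP-B15 peak from 0.232 to 99.4 with a median of 57.3. In all, 14 regions (4.49%) stood at or above percentile 90 in both lists, 53 at or above 75 and 122 (39.1%) at or above 50, while 51 were below 50 in both. The percentile was higher in REH in 183 regions and higher in SUP-B15 in 129. Across the 312 regions the percentiles had a Spearman rho of 0.208 and a Pearson r of 0.179. These points come from the same 2 libraries and only peaks above each list's floor could enter, so the values are a description.

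**Figure D1:**
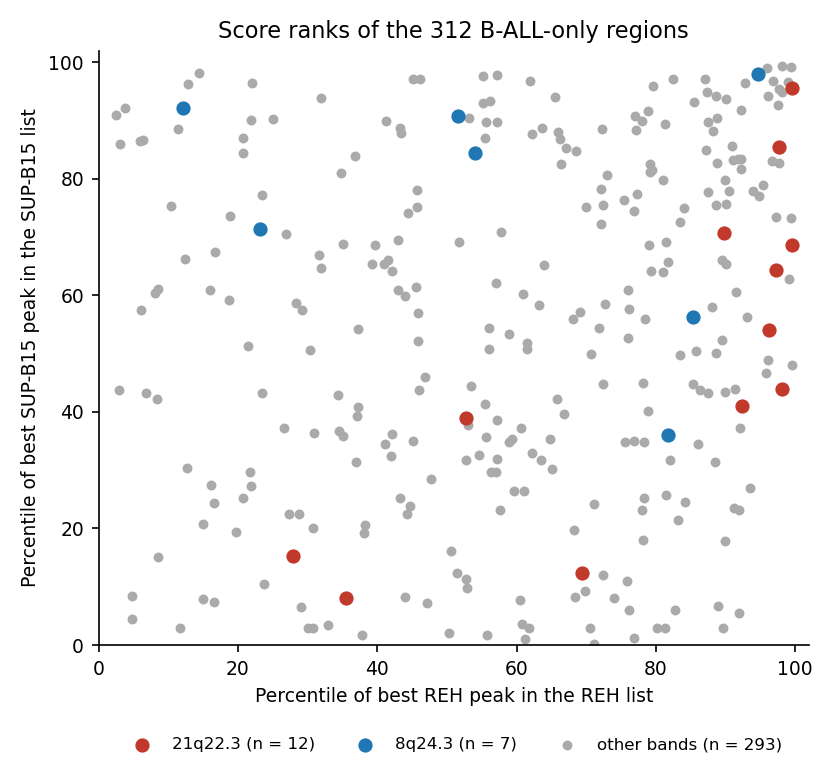
Percentile of the best REH peak within the REH list (x axis) and of the best SUP-B15 peak within the SUP-B15 list (y axis) for the 312 B-ALL-only regions, 1 point per region. The 12 regions of band 21q22.3 (red) all had the higher percentile in REH, 5 of the 7 regions of 8q24.3 (blue) had it in SUP-B15, and the other regions (grey) fill most of the plane.

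The peaks of these regions ranked above those of regions bound in 1 B-ALL line alone, and level with or below peaks at sites of both B-ALL lines that other lines had too. The 365 REH peaks in B-ALL-only regions had a median score of 76.5 (median percentile 62.0), against 58.7 (32.9) for the 2378 peaks in regions of REH alone and 77.4 (63.0) for the 3355 peaks in regions shared with SUP-B15 and 1 or more other lines. For SUP-B15 the medians were 81.3 (percentile 56.2) over 334 peaks, 64.1 (33.9) over 1519 peaks of SUP-B15 alone and 87.3 (61.6) over 3157 peaks at sites shared with REH and others. Of the peaks in B-ALL-only regions, 14.5% in REH and 12.9% in SUP-B15 were among the highest-scored 10% of their list, against 2.40% and 2.24% in regions of the line alone. The calls that chose the regions come from these scores, so no test was made.

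Taken per region, the best peaks were of lower rank where no other line had the site. Regions with a peak in both REH and SUP-B15 numbered 2337, of which the B-ALL-only regions were 13.4%. The median of the mean percentile over the 2 lines was 56.2 with no other line, 62.1 with 1 other line (217 regions), 66.0 with 2 (229), 67.1 with 3 (302), 64.3 with 4 and 73.8 with all 5 (709). The rise was thus not even, with a lower value at 4 lines than at 3, and the boxes overlap widely. Regions with more lines are merged from more peaks and can hold several peaks of a line, which was not adjusted for.

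**Figure D2:**
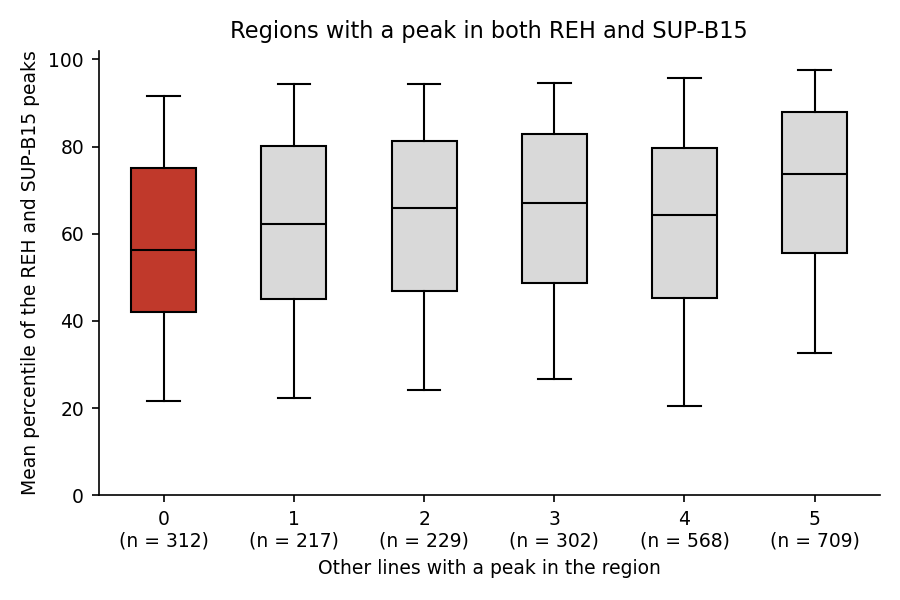
Mean percentile of the best REH and SUP-B15 peaks (y axis) for regions with a peak in both lines, by the number of other lines with a peak there (x axis). Lines in the boxes are medians, boxes the quartiles and whiskers the 5th and 95th percentiles. The B-ALL-only regions (red) have the lowest median, 56.2, and regions of all lines the highest, 73.8.

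In shape, the B-ALL-only regions were mostly compact sites with 1 peak of each line. This was so in 261 of 312, while 42 held 2 or more REH peaks and 19 held 2 or more SUP-B15 peaks. The regions were 179 to 2723 bp wide with a median of 507 bp and together covered 194 kb. The widest after the one in 6p25.3 was chr20:55974201-55976577 in 20q13.31, of 2377 bp, where the REH peak (score 70.9) and the SUP-B15 peak (score 394) shared 71 bp. The median peak width was 252 bp in REH and 422 bp in SUP-B15. Over the whole lists the medians were 213 bp and 350 bp, so the wider SUP-B15 peaks were a property of that list as well.

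In most regions the smaller of the REH and SUP-B15 peak sets lay largely within the other, although the rule asked for 1 shared base. The shared bases were 217.5 bp in the median region, which is 93.5% of the smaller of the 2 peak sets, and in 121 regions the smaller set lay wholly inside the other. Of all bases covered by either line, the shared part was 49.3% in the median region. SUP-B15 covered more bases in 247 regions, at a median of 1.49 times the REH bases. The centres of the best peaks were a median of 109 bp apart. At sites of both lines that all 5 other lines also had, the median shared part was 81.2% of the smaller set and the centres were 263 bp apart, where regions were wider and held more peaks.

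The regions were spread over 158 bands, of which 90 held 1 region. All were autosomal. Chromosome 17 had 30 regions, 9.62% (Wilson 95% interval 6.82 to 13.4%), against 8.20% of all regions with a peak in REH or SUP-B15. Chromosome 22 had 18 regions (5.77%, 3.68 to 8.93%, against 3.42%) and chromosome 21 had 13 (4.17%, lower bound 2.45%, against 2.17%). Chromosome 1 had 17 regions, 5.45% (3.43 to 8.55%) against 9.77%. On chromosomes 21, 22 and 1 the interval did not reach the share of the other regions. These chromosomes were picked among all after their values were seen, regions close together are not independent, and the intervals cover counting error only.

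**Figure D3:**
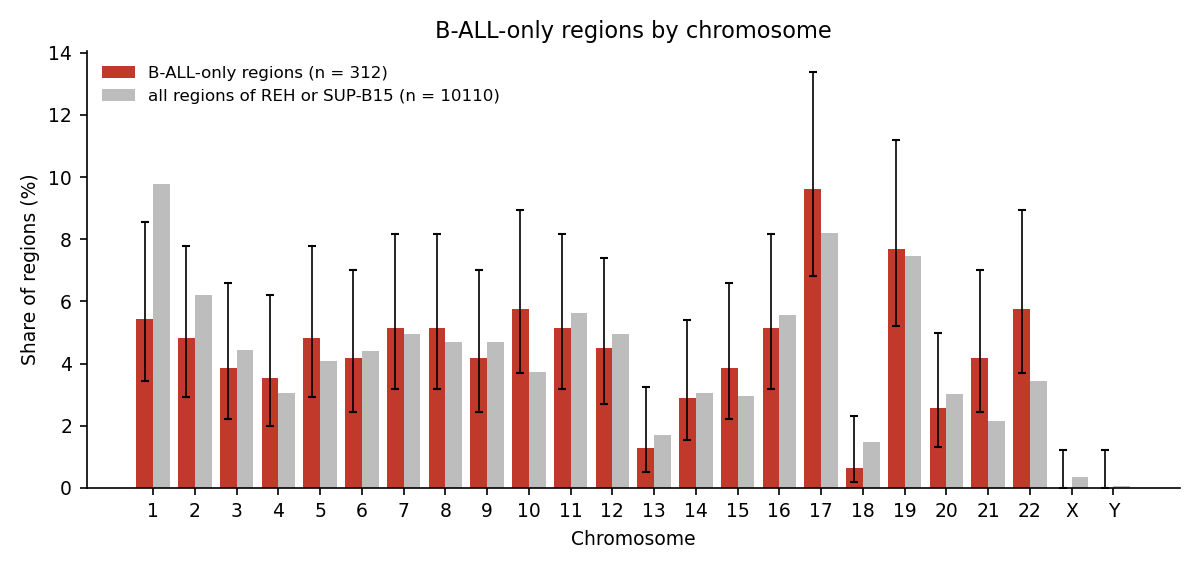
Share of the 312 B-ALL-only regions on each chromosome (red bars, with Wilson 95% intervals) beside the share of all 10110 regions with a peak in REH or SUP-B15 (grey bars). Red bars exceed grey ones most on chromosomes 22, 10 and 21, and fall short most on chromosome 1.

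Giemsa-light bands, which tend to be rich in genes, held 231 of the 312 regions. This is 74.0% (Wilson 95% interval 68.9 to 78.6%), against 65.4% of all regions, 68.9% of regions of REH or SUP-B15, 66.3% of regions of REH alone and 71.4% of regions of SUP-B15 alone. For the 2025 regions of both lines that 1 or more other lines also had, it was 69.5% (67.5 to 71.5%). By the number of other lines it ranged there from 67.4 to 72.1%. For the 655 regions of the 4 T-ALL lines only it was 59.7% (55.9 to 63.4%). With a common score floor of 80.03 for all lists, the share among the 113 B-ALL-only regions then found was 61.9%. That is below the 65.4% of all regions in the full lists, and shares of other regions at that floor are not given.

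The band with most B-ALL-only regions was 17q25.3, a gene-dense band at the end of the long arm. It held 14 (4.49% of the 312, against 1.89% of the regions of REH or SUP-B15), between 75318105 and 81058121 on chromosome 17. The best REH score ranged from 54.7 to 101 and the best SUP-B15 score from 50.8 to 293, so this band had many regions without a strong one in REH. The strongest was chr17:76120328-76121316, with 101 in REH (percentile 79.6) and 293 in SUP-B15 (percentile 95.9). The percentile was higher in SUP-B15 in 10 of the 14, and some of the 14 lie within 10 kb of each other and are not independent. With a common score floor the band held 2.65% of the regions found.

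Band 21q22.3 had 12 regions (3.85%, against 1.47%), and in these REH ranked above SUP-B15 without exception. The median percentile was 94.3 in REH and 49.0 in SUP-B15, and the percentile was higher in REH in 12 of 12, beside 183 of 312 regions overall. The 12 are not independent, since chr21:45559286-45565121, chr21:45578592-45581013 and chr21:45624608-45627655 each hold 2 of them. REH scores in the band ran from 56.9 to 543 and SUP-B15 scores from 52.8 to 289. The highest REH score of any B-ALL-only region, 543 (percentile 99.6), was at chr21:45563046-45565121, where SUP-B15 scored 98.0 (percentile 68.6). Other regions of the band were chr21:45559286-45560842 (253 in REH, 152 in SUP-B15) and chr21:45626298-45627655 (239 and 91.5). The REH list as a whole was rich in this arm: 2.60% of its peaks lay on 21q, against 1.47% in SUP-B15 and 1.21 to 1.75% in the 5 other lines. Copy number was not used here, and its part in these values was not tested.

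Band 8q24.3 had 7 regions (2.24%, against 1.67%), and here SUP-B15 had the higher median percentile. The median was 84.4 in SUP-B15 and 54.0 in REH, and 5 of 7 regions were higher in SUP-B15. None of the 7 had a peak of another line within 1 kb, and 5 of them lay between 142127712 and 142425721. SUP-B15 had 4.43% of its peaks on 8q, against 2.41% in REH and 2.12 to 3.13% in the other lines, and the part of this in the values was not tested either.

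Of the remaining bands with 4 or more regions, 15 in number, 19p13.3 held 8, 7p22.3 held 7 and 17q25.1 held 6. Bands 14q32.33, 16q24.3, 22q13.2, 22q13.31, 5q35.3 and 9q34.2 held 5 each, and 10q26.13, 16q22.1, 17p13.3, 19p13.11, 19q13.33 and 4p16.3 held 4 each. By share of the B-ALL-only regions, 19p13.3 held 2.56% (Wilson 95% interval 1.30 to 4.98%), close to its 2.27% of the regions of REH or SUP-B15. The same shares were 2.24% against 0.702% in 7p22.3 and 1.92% against 0.692% in 17q25.1. Bands with 5 regions held 1.60% each, against 0.366 to 0.811%, and bands with 4 held 1.28% each, against 0.307 to 0.851%. All were picked by their counts, which favours high shares. The 5 regions of 16q24.3 lay within chr16:88987221-89050103, the 4 of 4p16.3 within chr4:2814736-2934125 and the 5 of 22q13.2 within chr22:42309497-42950159. In 22q13.2 and 22q13.31 the percentile was higher in REH in 5 of 5 regions each. In 16q22.1 it was higher in SUP-B15 in 4 of 4 regions. The best REH score there was 60.2 and the best SUP-B15 score 193, so REH was near the floor of its list.

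Some B-ALL-only regions formed short stretches of neighbouring sites. Chaining regions with at most 10 kb between them, a distance chosen after their positions were seen, gave 27 stretches with 61 regions, and 251 regions stood alone. The stretches comprised 20 of 2 regions and 7 of 3. In 23 of the 27, no peak of the other 5 lines lay between the first and the last region, and the same was so in 6 of the 7 stretches of 3. The regions hold no such peak by the rule, and the stretches span only 620 to 13223 bp. These counts therefore follow largely from the choice, and like stretches of other regions were not counted. Joined in this way, the 312 regions form 278 loci.

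The stretches of 3 included sites far from any peak of the other lines. In 12q14.3 (chr12:66217790-66220279) 3 REH and 4 SUP-B15 peaks lay within 2490 bp, with REH scoring up to 105 and SUP-B15 up to 128, and the nearest peak of another line was 342781 bp away. In 4p15.31 (chr4:20253470-20256461) 4 peaks of each line lay within 2992 bp, with REH scoring up to 497 and SUP-B15 up to 86.6, and the nearest other peak was 445309 bp away. The 4p15.31 site is the band of SLIT2, which encodes a guidance ligand for ROBO receptors. Another stretch, in 17q25.3 (chr17:80290456-80292189), had 3 peaks of each line in 1734 bp and no other line within 15014 bp. These 3 stretches thus carried several calls in each B-ALL line and none nearby in the rest.

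The other stretches of 3 were closer to peaks of other lines. They lay in 17q25.1 (chr17:74523332-74534679; nearest other peak 3864 bp), 17q25.3 (chr17:76120328-76122565; 1037 bp), 22q12.3 (chr22:34315883-34318117; 119 bp) and 22q13.2 (chr22:42309497-42322719; 31 bp). The last held 1 K562 peak between its regions, beside 6 REH and 8 SUP-B15 peaks. Its best scores were 274 in REH and 268 in SUP-B15.

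Absence from the other 5 lines often held only for the region itself. The nearest peak of another line was 3 bp to 1.90 Mb away, with a median of 7091 bp. In 80 regions (25.6%) it lay within 1 kb and in 140 (44.9%) within 5 kb, whereas 55 regions had none within 50 kb and 23 none within 200 kb. The share within 1 kb was 27.8% for the regions of REH alone and 30.9% for those of SUP-B15 alone. The median distance was 11296 bp for the regions of REH alone and 6411 bp for those of SUP-B15 alone, so by this measure the B-ALL-only regions stood between them. Within 1 kb there was a JURKAT peak at 38 regions, a DND41 and a SIL-ALL peak at 26 each, an HPB-ALL peak at 22 and a K562 peak at 20. JURKAT has a low score floor and a long list, and K562 the shortest list, so these counts do not rank the lines.

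**Figure D4:**
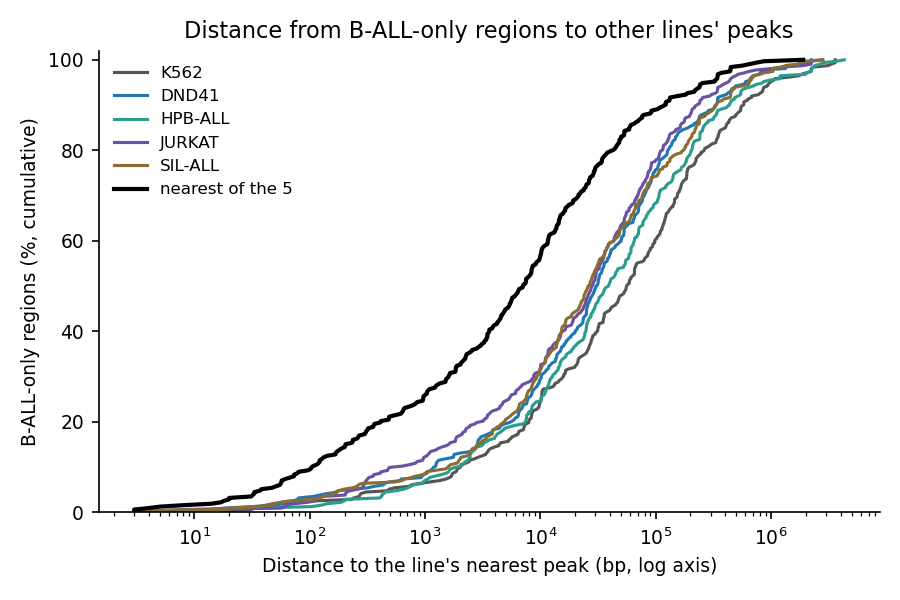
Cumulative share of the 312 B-ALL-only regions (y axis) by the distance to the nearest peak of each other line (x axis, log scale), in the full lists. The black line is the nearest peak of any of the 5 lines: 25.6% of regions lie within 1 kb of one, and the median is 7091 bp.

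Most isolated were a region of 6q16.1 (chr6:94128258-94128793; scores 101 in REH and 134 in SUP-B15), 1.90 Mb from a DND41 peak, and one of 11q14.1 (chr11:79151874-79152188; 80.1 and 69.1), 865785 bp from a DND41 peak. Close to the rule's limits stood regions that a shift of some bases would have moved. The nearest peak of another line was 3 to 8 bp away at the 5 closest, in 10p14 (chr10:7453197-7453534), 10q23.33 (chr10:94451203-94451688), 15q15.3 (chr15:44068313-44069050), 7q21.2 (chr7:92077007-92077204) and 14q32.33 (chr14:105282851-105283046). The 5 regions with the least shared bases had 1 to 16 bp in common, in 7q36.3 (1 bp), 14q12 (5 bp), 9q32 (8 bp), 11p13 (15 bp) and 22q13.1 (16 bp).

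Just outside the rule, a REH peak and a SUP-B15 peak in 7p22.1 touched without sharing a base (chr7:5466450-5466675 and chr7:5465937-5466449), and in 17q24.2, 20p11.21, 10p15.3 and 19q13.33 such pairs were 2, 3, 5 and 15 bp apart. Regions of REH alone had one of SUP-B15 alone within 100 bp in 28 cases and within 500 bp in 73. On the other side, a region of both lines in 1q22 (chr1:156051874-156052392) was left out for a DND41 peak that shared 12 bp with it, and one in 19q13.32 (chr19:45348100-45348576) for a JURKAT peak that shared 22 bp. Sites on both sides of the limits thus differ by few bases.

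The surroundings of the B-ALL-only regions were richer in peaks of REH and SUP-B15 than in peaks of the other lines. Peaks inside the regions were left out, and of the remaining peaks of each list the share within 50 kb of a B-ALL-only region was counted. It was 8.73% in REH (679 of 7781) and 9.88% in SUP-B15 (711 of 7199). In the other lines it was 4.59% in K562 (273 of 5942), 4.22% in DND41 (631 of 14944), 3.37% in HPB-ALL (430 of 12765), 3.83% in JURKAT (of 14839 peaks) and 4.12% in SIL-ALL (631 of 15304). The groups did not overlap, and K562 was the highest of the others.

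The mean share was 9.30 ± 0.813% in the B-ALL lines (SD, n = 2) and 4.03 ± 0.459% in the others (SD, n = 5), a difference of 5.27 percentage points. The regions were chosen for peaks of REH and SUP-B15 and for lacking those of the others, so the lines are not interchangeable around them, and the values are a description with no p. Without peaks closer than 5 kb to a region the difference was 2.63 points, with 5.18% in REH, 6.31% in SUP-B15 and 2.65 to 3.47% in the others. The ratio of the means in the full count was 2.31. Giemsa-light bands held 69.5% of the REH and 69.7% of the SUP-B15 peaks, against 64.2 to 68.0% in the others. Among peaks of such bands alone the shares were 10.3% in REH and 11.6% in SUP-B15 and 4.06 to 5.47% in the others. The part of band type in the difference was not tested.

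**Figure D5:**
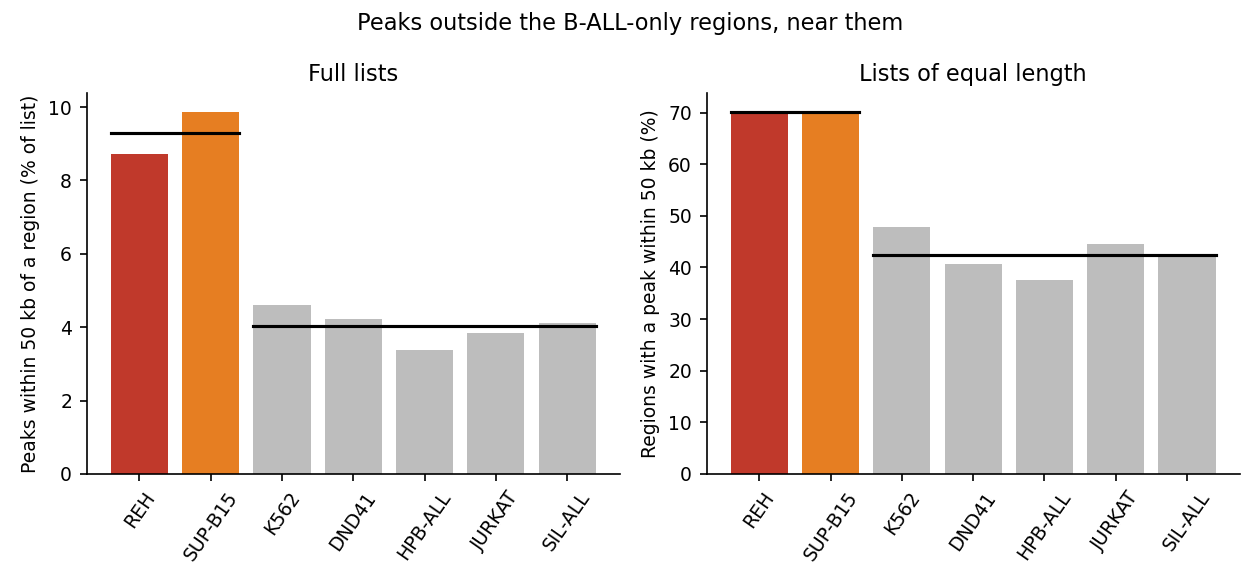
Left, the share of each list's peaks outside the B-ALL-only regions that lie within 50 kb of one, in the full lists; right, the share of the 312 regions with such a peak within 50 kb, in lists of equal length. Bars are 1 library each and black lines are means of the 2 B-ALL lines (coloured) and the 5 other lines (grey); both B-ALL bars exceed every grey bar.

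Counted from the regions, neighbouring sites of the B-ALL lines were also more common and nearer. In lists limited to the 5942 highest-scored peaks, a further REH peak lay within 50 kb of 69.9% of the 312 regions and a further SUP-B15 peak of 70.2%. The share was 47.8% for K562, 40.7% for DND41, 37.5% for HPB-ALL, 44.6% for JURKAT and 42.0% for SIL-ALL. The means were 70.0 ± 0.227% (SD, n = 2) and 42.5 ± 3.88% (SD, n = 5). Without peaks closer than 5 kb the difference fell from 27.5 to 12.4 points, with 43.9% in REH, 48.4% in SUP-B15 and 26.9 to 37.8% in the others.

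The median distance to the nearest further peak was 9473 bp in REH and 7395 bp in SUP-B15, against 56324 bp in K562, 76731 bp in DND41, 86110 bp in HPB-ALL, 65300 bp in JURKAT and 75019 bp in SIL-ALL. Without peaks closer than 5 kb it was 68709 bp in REH and 55040 bp in SUP-B15, against 85476 to 121200 bp in the others. In the full lists, which differ in length, it was then 48343 bp in REH and 47994 bp in SUP-B15. The others had 37402 to 88527 bp there, so the groups overlapped. The 3 measures count the same neighbouring peaks in different ways. With a common score floor, which leaves SIL-ALL all of its peaks and shortens the B-ALL lists most, the last 2 differences were 4.52 points and -15480 bp and the groups overlapped. The share of regions was then 48.1% for REH and 59.9% for SUP-B15, against 53.8% for HPB-ALL and 62.5% for SIL-ALL, the highest of the others.

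The same count around regions of 1 B-ALL line alone, where the other B-ALL line had no call, was made after the values above were seen. Around the 2378 regions of REH alone lay 28.8% of the SUP-B15 peaks, against 18.7 to 23.9% of those of the 5 other lines. Around the 1519 regions of SUP-B15 alone lay 23.3% of the REH peaks, against 14.2 to 16.7%. In both cases the other B-ALL line had the highest share after the line itself. No test was made.

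A list of 37 genes of B-cell development and leukaemia lay in bands with B-ALL-only regions about as often as other genes. Of these, 12 (32.4%) lay in a band with at least 1 B-ALL-only region, against 36.9% of all protein-coding genes, with gene bands taken from GRCh38 and matched by band name alone. Among the transcription factors, the bands of IRF4 (1 region), IRF8 (1), EBF1 (1), TCF3 (8), FOXO1 (2) and SPI1 (2) held regions, and those of PAX5, IKZF1, IKZF3, BACH2, BCL6, LEF1 and POU2AF1 held none. The bands of the recombinase genes RAG1 and RAG2 and of DNTT, the terminal transferase of immunoglobulin gene assembly, held none. Among the bands of surface and signalling genes, those of CD22 (2 regions), CD79A (1) and IGLL1 (1) held regions and those of CD79B, MS4A1, VPREB1, BLNK, MME, IL7R, BTK and CRLF2 did not.

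A few regions in the bands of these genes were strong. Besides the region in the IRF4 band, one in 5q33.3, the band of EBF1 (chr5:159894553-159895282), scored 154 in REH (percentile 92.2) and 142 in SUP-B15 (percentile 83.5) and was 45225 bp from another line's peak. One in 13q14.11, the band of the FOXO1 gene (chr13:40176520-40177387), scored 144 and 154 and was 564335 bp from one. One in 16q24.1, the band of IRF8 (chr16:85494316-85495254), scored 115 and 238 but had an HPB-ALL peak at 33 bp. A band can span several megabases, so these pairings place no region at a gene.

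The band of the immunoglobulin heavy chain locus, 14q32.33, held 5 regions, and those of the kappa (2p11.2) and lambda (22q11.22) loci held none. The 5 lay between 104860344 and 105993754 on chromosome 14, and the strongest, chr14:104860344-104861054, scored 130 in REH (percentile 88.8) and 195 in SUP-B15 (percentile 90.5), 255141 bp from a peak of another line. A second, chr14:105527691-105528284, scored 81.8 and 152, and 3 of the 5 had a peak of another line within 1 kb. The bands of the fusion partners ETV6, RUNX1 and ABL1 and that of ERG held no B-ALL-only region, that of BCR, 22q11.23, held 1 (chr22:23922390-23922859; 108 in REH and 52.0 in SUP-B15), and that of KDM2B itself, 12q24.31, held 1 (chr12:124864745-124865309; 63.8 and 175).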

How the data were processed

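The labels list 12 libraries, 7 of KDM2B and 5 inputs, and only the 7 KDM2B peak lists were analysed. The inputs are of K562, REH, SUP-B15, HPB-ALL and SIL-ALL. No input is listed for DND41 or JURKAT, so both B-ALL lines have an input and not all of the other lines do. Per the submitters' processing notes, the tools were FastQC 0.10.1 for read quality and Bowtie 1.1.1 for alignment, on hg19. Peak names begin with MACS, per the files. Its version, control and threshold were not given in the sources used here. The score of each peak is the authors' deposited value with no stated unit. Lists started at different scores, from 50 in SUP-B15 and 50.01 in REH to 80.03 in SIL-ALL, so absence of a peak is absence above the floor of that list.

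The regions, gene list, windows and tests were chosen with earlier results of these data known. Regions named are the 15 with the highest mean percentile, the 3 widest and 3 with most peaks, those of bands with 4 or more regions (the larger bands in full or by range), the 5 nearest each limit of the rule, and those in bands of listed genes; others were picked after their values were seen. Bands come from the hg19 and hg38 tables of circlize 0.4.16 by midpoints, and genes from RefSeq (GRCh38.p14). Planned annotation of regions with genes was not run. Merging was tested on simulated lists. Python 3.11.15, numpy 2.4.6, pandas 2.3.3, scipy 1.17.1 and matplotlib 3.10.9 were used. Exact permutation tests over the lines were computed for the neighbourhood, but no p is given, since the regions were chosen by the same lines. The share of peaks by chromosome arm was added to the search for outlying lines after its values were seen.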

Additional observations from a re-analysis of the deposited data

Results flagged for a closer look

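The share of a list's peaks on chromosome arm 21q stood apart in REH, at 2.60%, when the 7 lines were set side by side: its gap to the next line, K562, was large against the range of all. Among the 5 other lines K562 stood apart in the same way, at 1.75%. These were 2 of 13 sets of values examined, and the sets overlap. Chance flags about 1 set in 20, but this rate does not apply to the flagged sets. Both are shares on 21q, and shares by arm were added after their values were seen. The B-ALL-only regions of band 21q22.3 had the higher percentile in REH in 12 of 12, though some of these lie within 10 kb of each other and are not independent. The part of the REH list's share on 21q in this was not tested.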

How the results depend on the processing

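The count of 312 B-ALL-only regions was 319 with lists of equal length (224 of the 312 kept) and 252 when peaks within 500 bp were joined. It was 113 with a common floor (90 of the 312 kept), 181 when each list was limited to its upper scores from the median on (122 kept), 157 with 50% reciprocal overlap of the REH and SUP-B15 peaks and 172 when no other line could have a peak within 5 kb. The 15 strongest regions kept the pattern with equal lists, a common floor and the median score. These settings only take low-scored peaks away, and the best peaks of the 15 lay above each cut. Their keeping the pattern was thus given in advance and is no check. With each of the 5 other lines left out in turn the count ranged from 347 to 389. Medians of the peaks moved as weak peaks left: with equal lists the percentile was 70.3 in REH and 64.2 in SUP-B15 and the width 267 and 448 bp, and with a common floor 87.0 and 81.2 and 355 and 561 bp. The common floor also gave a Giemsa-light share of 61.9% and 2.65% in 17q25.3. For the neighbourhood, no difference turned sign. With each line left out in turn, the differences ranged from 4.70 to 5.85 points for the share of peaks, from 26.3 to 28.8 points for the share of regions and from -67356 to -59910 bp for the distance. With a common floor the last 2 were 4.52 points and -15480 bp, for which the cause was not tested. No paired analysis was possible because no line had a replicate. The common floor for the neighbourhood, the Giemsa-light bands alone and the combination of equal lists with the 5 kb exclusion were chosen after seeing the data. Other distances to gene starts were not run, for want of an hg19 annotation. Depth is unknown, so a missing call cannot be told apart from a shallow library.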

Other observations

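In 63 of the 312 regions the percentiles of REH and SUP-B15 were over 50 apart, higher in REH in 38 and in SUP-B15 in 25; the examples that follow were picked for this gap. In 15q24.3 (chr15:76633357-76633688) the scores were 134 in REH (percentile 89.6) and 50.8 in SUP-B15 (percentile 2.86). In 12q13.13 (chr12:54402941-54403279), a band that holds the HOXC cluster of homeobox genes, they were 152 (92.0) and 51.8 (5.48), and the nearest peak of another line lay 8190 bp away. In 4p16.3 (chr4:2836467-2837338) the order turned, with 50.5 in REH (percentile 2.53) and 203 in SUP-B15 (percentile 91.1). In these 3 examples the lower line stood near the floor of its list.

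Of the 312 B-ALL-only regions, 15 (4.81%) lay within 10 kb of a site that all 7 lines had, with a median distance of 460740 bp. The share was 3.24% for the 2378 regions of REH alone, 5.79% for the 1519 of SUP-B15 alone and 2.60% for the 655 of the 4 T-ALL lines only. The B-ALL-only regions thus stood between those of REH alone and of SUP-B15 alone, and the share over all regions was not computed.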
